A study of Rattus norvegicus with 16 samples.

Results

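A set of 9 genes that are used to recognise microglia in rodent brain was followed through the hippocampus of stressed and unstressed rats: Itgam, Csf1r, P2ry12, Cx3cr1, Aif1, Trem2, C1qa, C1qb and Cd68. They were taken by symbol, each from its messenger RNA target on the array, and are 9 of the 13903 symbols that could be named from any RefSeq target (13888 from messenger RNA targets). Each was measured by 1 probe, and all 9 passed the filter on dim probes. Hippocampal RNA of male Sprague-Dawley rats had been hybridised to 16 single-colour arrays, 4 for each of 4 groups. The depression-susceptible, anxiety-susceptible and insusceptible groups had been through 8 weeks of chronic mild stress (CMS), a succession of mild stressors, and the control group was kept free of it. The labels name no engineered allele or drug, and the sources used here do not state the age of the rats, how stressed rats were sorted into the 3 outcomes, or if each array stands for 1 animal.

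Microglia are the resident macrophages of the brain. They depend on signals through the receptor that Csf1r encodes, sense injury and neuronal activity through the purinergic receptor P2ry12 and the fractalkine receptor Cx3cr1, and clear debris and synapses with the help of complement, the complement receptor subunit Itgam (CD11b), the lipid-sensing receptor Trem2 and the lysosomal glycoprotein Cd68. In hippocampus they are studied for their part in synapse removal and in the response to stress. None of the 9 genes is expressed by microglia alone: macrophages of the brain's borders share most of them, and blood monocytes share several.

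Levels are given as log2 of the processed signal minus the 75th percentile of all probes on the same array, so 0 is the brightness of that percentile, and positive differences mean a higher level in the group named first. Levels of different probes are not set against each other, except where the brightness of a probe among others or the summed level of a list is given. Within a group, arrays from the same slide varied less than the spots of 1 probe inside an array (variance ratio 0.53 to 0.868), so they were averaged, which left 6 samples: 2 depression-susceptible, 1 anxiety-susceptible, 1 insusceptible and 2 control. Differences, standard errors (SE), 95% intervals and adjusted p are from limma on these 6 samples over all 17880 probes tested, with a threshold of 0.05 on the adjusted p. The error therefore measures the spread between slides, not between animals, and is assumed to hold for the groups with 1 sample. Depression-susceptible and control arrays shared slides 1 and 2, scanned on day 1. Anxiety-susceptible arrays filled slide 3 and insusceptible arrays slide 4, both scanned on day 2, so for these groups the effects of stress outcome, slide and day cannot be told apart. The 75th percentile of the signal was 4531 to 5293 on depression-susceptible arrays, 1630 to 1903 on anxiety-susceptible arrays, 1869 to 1916 on insusceptible arrays and 4609 to 4903 on control arrays. The share of probes well above background ranged from 62.1% to 74% over the arrays, and the number of arrays limits the precision.

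Promoters of 7 of the 9 genes were found in RefSeq on build GRCr8, as the 250 bases before the annotated start. Each was searched on both strands for GAGGAA, a core of the sites that the myeloid factor PU.1 prefers, and for TGTGGT, a core of RUNX sites; no match of one overlaps a match of the other in the promoters shown. Itgam, Csf1r and C1qb are shown because each holds 2 copies of the PU.1 core, while the first pair was lower in all stressed groups and C1qb in none. Trem2 is shown as an example with 1 copy close to the start, and Cd68, whose 1 copy lies as close, is not shown. Capitals mark the matches of either motif, and TTCCTC is GAGGAA on the other strand.
Itgam, chr1:192089342-192089591, + strand: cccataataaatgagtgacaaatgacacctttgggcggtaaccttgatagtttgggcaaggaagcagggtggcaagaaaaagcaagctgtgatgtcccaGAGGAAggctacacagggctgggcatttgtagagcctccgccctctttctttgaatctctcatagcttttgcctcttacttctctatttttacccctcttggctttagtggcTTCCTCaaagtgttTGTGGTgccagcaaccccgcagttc
Csf1r, chr18:56834129-56834378, + strand: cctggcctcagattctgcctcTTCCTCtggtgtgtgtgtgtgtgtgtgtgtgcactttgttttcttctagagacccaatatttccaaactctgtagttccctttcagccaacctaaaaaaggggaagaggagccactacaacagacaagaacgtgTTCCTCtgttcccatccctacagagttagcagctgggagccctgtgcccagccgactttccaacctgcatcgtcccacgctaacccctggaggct
C1qb, chr5:154407828-154408077, - strand: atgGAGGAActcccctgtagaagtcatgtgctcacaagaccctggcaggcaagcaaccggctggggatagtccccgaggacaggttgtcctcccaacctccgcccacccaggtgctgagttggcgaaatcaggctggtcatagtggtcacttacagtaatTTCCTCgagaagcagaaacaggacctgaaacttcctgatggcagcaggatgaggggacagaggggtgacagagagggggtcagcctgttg
Trem2, chr9:20151780-20152029, - strand: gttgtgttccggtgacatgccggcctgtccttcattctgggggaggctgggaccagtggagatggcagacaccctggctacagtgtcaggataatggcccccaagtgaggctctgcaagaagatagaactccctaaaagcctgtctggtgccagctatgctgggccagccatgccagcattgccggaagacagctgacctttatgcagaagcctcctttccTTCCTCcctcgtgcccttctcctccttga

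Itgam held the PU.1 core at -151 and -39 from its start and a RUNX core at -25. Csf1r held the PU.1 core at -229 and -95, C1qb at -247 and -90, Trem2 at -29 and Cd68 at -27. Cx3cr1 held 2 RUNX cores and C1qa 1. Among 33469 rat promoters of the same length, 23.3% held the PU.1 core and 14.5% the RUNX core, so either string is common, and a match describes letters only.

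Against control, several microglial markers were lower in every stressed group and none passed as higher with limma on 6 samples. In depression-susceptible hippocampus 3 of the 9 fell (Itgam, P2ry12 and Csf1r), where 9.89% of all probes passed the test and 2.62% passed as lower. That fit leaves out the slides that these arrays shared with control arrays. With slide as a block among the 4 depression-susceptible and control samples, 4 of the 9 passed. Over all probes 6559 passed with the block, 3209 of them as lower, in place of 1765. In anxiety-susceptible hippocampus 4 of the 9 fell (P2ry12, Itgam, Aif1 and Csf1r), where 28% of probes passed and 13.2% as lower. In insusceptible hippocampus the same 4 genes fell, where 28.9% of probes passed and 11.8% as lower. Fewer microglia and less of each RNA per cell cannot be told apart in RNA of whole hippocampus. The other 5 genes, Cx3cr1, Trem2, C1qa, C1qb and Cd68, passed in none of the 3 comparisons. With arrays centred on their median, which lowers all differences, 4, 6 and 5 of the 9 passed in depression-susceptible, anxiety-susceptible and insusceptible hippocampus, all as lower. Of the 17880 probes 1618, 7602 and 7712 passed under that centring, 768, 6215 and 6245 as lower. Trem2 passed there in anxiety-susceptible (-0.45, limma adjusted p = 0.0444) and insusceptible hippocampus (-0.55, limma adjusted p = 0.0296), and C1qb in anxiety-susceptible hippocampus (-0.40, limma adjusted p = 0.0396). The median difference of the 9 was -0.18 in depression-susceptible hippocampus, -0.45 in anxiety-susceptible and -0.28 in insusceptible hippocampus, beside medians of -0.0077, -0.0056 and 0.0408 over all probes. With the 16 arrays taken as separate samples 5, 5 and 6 of the 9 passed, beside 49.3%, 71.5% and 72.8% of all probes. All those of the 9 were lower except Cd68 in depression-susceptible hippocampus, which was higher. Under quantile normalization, and without the filter on dim probes, fewer of the 9 passed than in the reported fit, as given in the closing section.

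The counts of the 9 changed when any of the 4 depression-susceptible and control samples was left out. Such fits have 1 residual degree of freedom fewer, which bears on the test of every probe. The share of all probes that passed in them is not given here, so lost calls may not be particular to these genes. Without the depression-susceptible sample of slide 1 or of slide 2, or without the control sample of slide 1, the counts were 1 in depression-susceptible hippocampus, 2 in anxiety-susceptible and 1 in insusceptible hippocampus, and without the control sample of slide 2 they were 1, 0 and 0. Arrays of the 2 groups did not overlap for 4 of the 9 genes between depression-susceptible and control, and for 6 in each of the comparisons of anxiety-susceptible and of insusceptible with control, where 40.1%, 67.6% and 69% of all probes did not overlap.

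**Figure D1:**
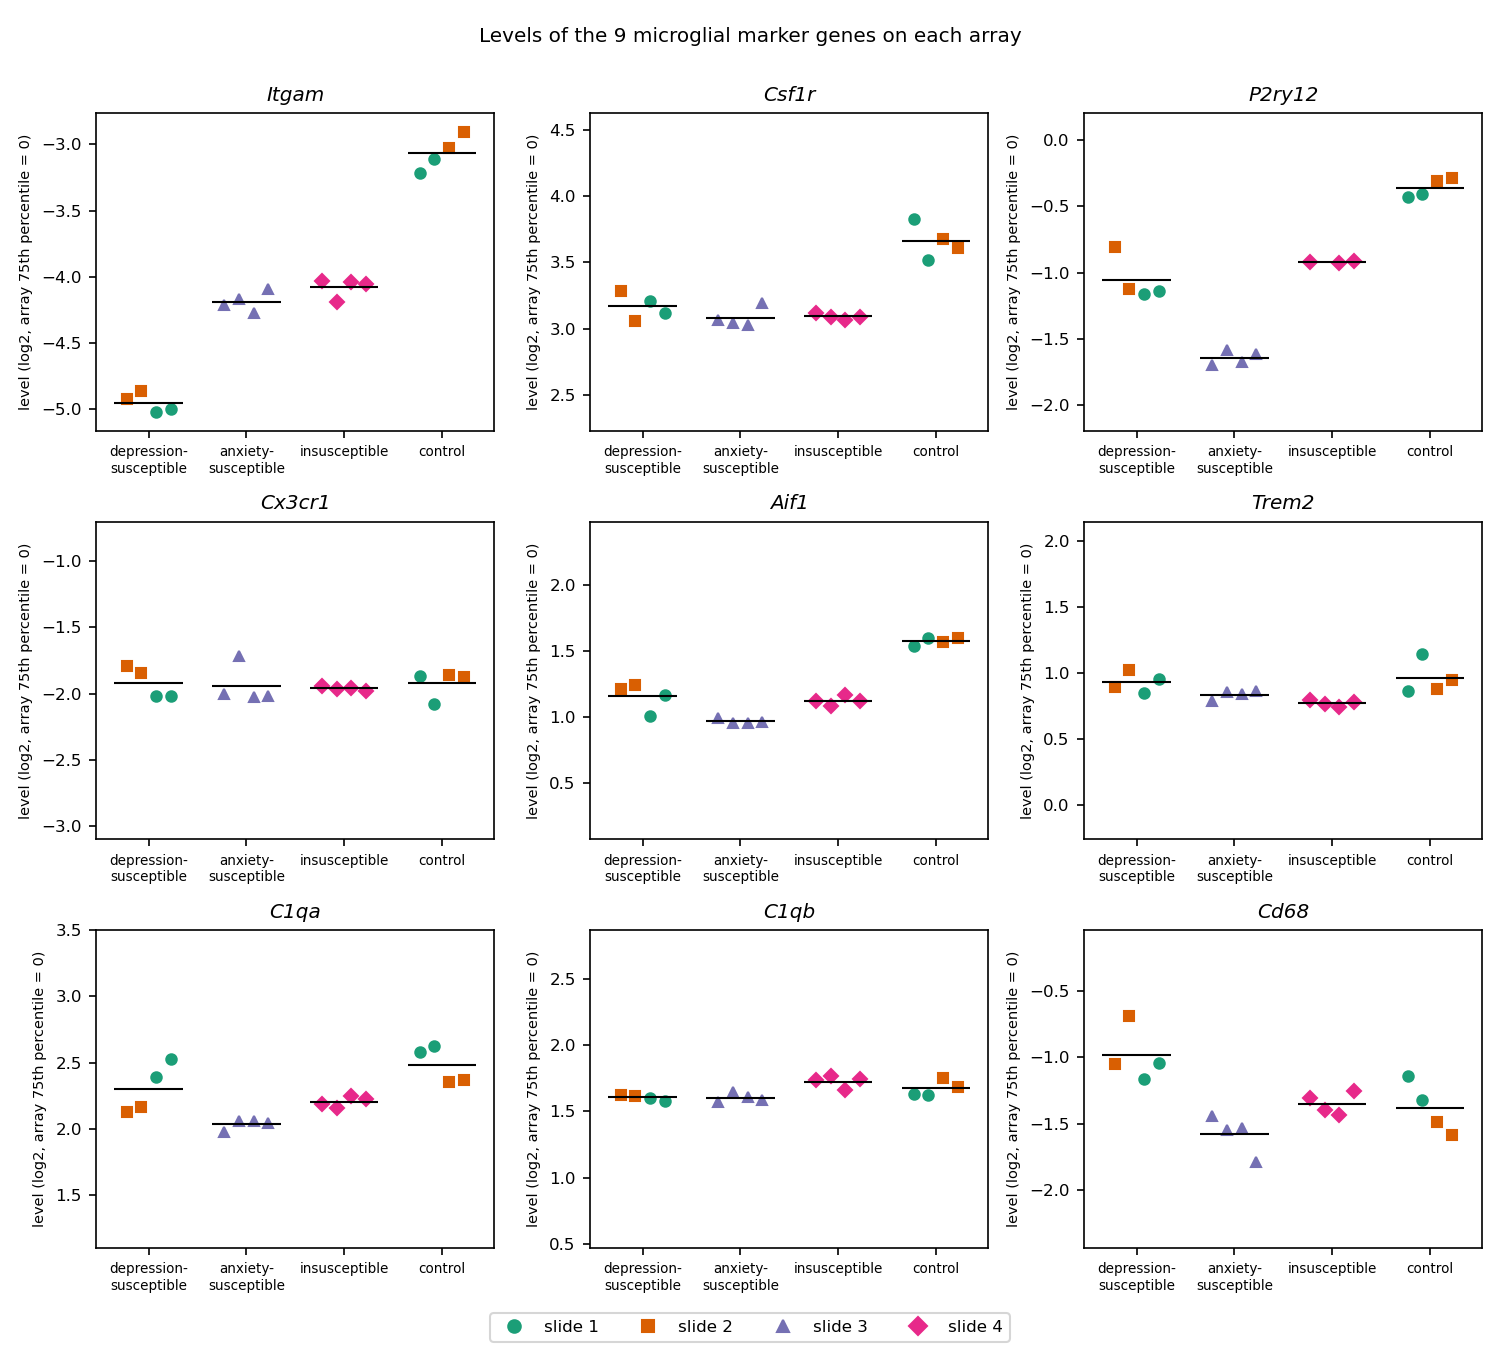
Levels of the 9 microglial marker genes on each array (log2, with the array's 75th percentile at 0). Each point is 1 array, its shape and colour give the slide, the line is the mean of the arrays in a group, and every panel spans the same height. Itgam arrays stand in 3 separate bands, with depression-susceptible arrays lowest and control arrays highest, while Cx3cr1 arrays of the 4 groups overlap.

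Itgam encodes the alpha subunit of complement receptor 3, by which microglia and other myeloid cells bind complement-tagged material. On depression-susceptible arrays its level was -4.93, -4.86, -5.02 and -5.00, on anxiety-susceptible arrays -4.22, -4.17, -4.28 and -4.09, on insusceptible arrays -4.03, -4.19, -4.04 and -4.05, and on control arrays -3.22, -3.11, -3.03 and -2.91. All 12 stressed arrays lay below all 4 control arrays, and the depression-susceptible arrays lay below those of every other group. Itgam fell by 1.89 in depression-susceptible hippocampus (SE 0.11, 95% interval -2.19 to -1.58, limma adjusted p = 0.0049), which is 3.70-fold lower. Only 0.3% of all tested probes had a lower difference in that comparison. Both slides showed the fall, with differences of -1.84 on slide 1 and -1.93 on slide 2. In anxiety-susceptible hippocampus Itgam fell by 1.12 (SE 0.13, limma adjusted p = 0.0162) and in insusceptible hippocampus by 1.01 (SE 0.13, limma adjusted p = 0.0181).

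The Itgam probe was well above background on every array, with processed signals of 142 to 174 on depression-susceptible, 88.3 to 106 on anxiety-susceptible, 104 to 117 on insusceptible and 495 to 654 on control arrays. The lowest signals well above background were 9.35 to 24.3, and the Itgam signal stood at the 17.2 to 27 percentile of such probes on stressed arrays and at the 36.4 to 39 percentile on control arrays. For a probe this dim the background matters. Under normexp background correction with outlier backgrounds replaced, an alternative chosen after seeing the data, the differences were -1.57 in depression-susceptible hippocampus, -0.60 in anxiety-susceptible and -0.51 in insusceptible hippocampus, all past the threshold (limma adjusted p = 0.00436, 0.0212 and 0.0312). Without the control sample of slide 2 the anxiety-susceptible and insusceptible calls ended (-1.02 and -0.91, limma adjusted p = 0.0542 and 0.0534).

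Itgb2, the beta subunit that pairs with the Itgam protein, was looked up after its values were seen. It differed by 0.04 in depression-susceptible hippocampus (SE 0.09, limma adjusted p = 0.772) and by -0.43 in anxiety-susceptible hippocampus (SE 0.10, limma adjusted p = 0.0525), and it fell by 0.51 in insusceptible hippocampus (SE 0.10, limma adjusted p = 0.0387). In depression-susceptible hippocampus, where Itgam was lowest, the transcript of its partner thus differed from control by less than its SE.

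Csf1r encodes the receptor for the growth factors CSF1 and IL-34, on which microglial survival depends. Its level was 3.29, 3.06, 3.21 and 3.12 on depression-susceptible arrays, 3.07, 3.04, 3.03 and 3.19 on anxiety-susceptible arrays, 3.12, 3.09, 3.07 and 3.09 on insusceptible arrays, and 3.83, 3.52, 3.68 and 3.61 on control arrays. Stressed arrays of the 3 groups overlapped each other, and none of them reached the lowest control array. Csf1r fell by 0.49 in depression-susceptible (SE 0.07, limma adjusted p = 0.0336), 0.58 in anxiety-susceptible (SE 0.09, limma adjusted p = 0.0232) and 0.57 in insusceptible hippocampus (SE 0.09, limma adjusted p = 0.023). These falls depended on the scaling. Under quantile normalization the Csf1r differences were -0.20, -0.13 and -0.10, and none passed (limma adjusted p = 0.31, 0.488 and 0.603). Each of the 3 calls also ended when either the depression-susceptible or the control sample of either slide was left out (limma adjusted p = 0.0692 to 0.22).

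P2ry12 encodes an ADP receptor that steers microglial processes and marks the homeostatic state. Its level was -0.80, -1.13, -1.16 and -1.14 on depression-susceptible arrays, -1.70, -1.58, -1.67 and -1.61 on anxiety-susceptible arrays, and -0.43, -0.41, -0.31 and -0.29 on control arrays. On insusceptible arrays it was -0.92, -0.93 and -0.92, with replicate 2 left out because its single spot carried the scanner's outlier flag. The anxiety-susceptible arrays were the lowest of the 4 groups and overlapped none of the others. P2ry12 fell by 1.28 in anxiety-susceptible hippocampus (SE 0.13, 95% interval -1.65 to -0.92, limma adjusted p = 0.013, 2.43-fold lower). The fall was 0.70 in depression-susceptible (SE 0.11, limma adjusted p = 0.0366; -0.73 on slide 1 and -0.67 on slide 2) and 0.56 in insusceptible hippocampus (SE 0.13, limma adjusted p = 0.0464). The depression-susceptible and insusceptible calls ended when any depression-susceptible or control sample was left out (limma adjusted p = 0.0781 to 0.168), and the anxiety-susceptible call without the control sample of slide 2 (-1.22, limma adjusted p = 0.0517). Under normexp with outlier backgrounds replaced the depression-susceptible and insusceptible falls also missed the threshold (-0.67 and -0.56, limma adjusted p = 0.0657 and 0.0526). In the authors' deposited value table the flagged spot of insusceptible replicate 2 is included, and there the insusceptible difference turned to 0.56 (limma adjusted p = 0.0514); without that spot it was -0.59 (limma adjusted p = 0.0469).

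Cx3cr1 encodes the receptor for fractalkine, which neurons present to microglia. Its level lay between -2.02 and -1.79 on depression-susceptible, -2.03 and -1.72 on anxiety-susceptible, -1.98 and -1.94 on insusceptible and -2.08 and -1.86 on control arrays. The 4 groups overlapped. Its differences from control were 0.0027 in depression-susceptible (95% interval -0.30 to 0.30), -0.02 in anxiety-susceptible (-0.39 to 0.35) and -0.04 in insusceptible hippocampus (-0.41 to 0.33), with limma adjusted p of 0.99, 0.916 and 0.833. A change within these intervals could not be seen with this spread; the intervals do not reach the differences measured for Itgam.

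Aif1 encodes Iba1, the actin-bundling protein by which microglia are stained. Its level was 1.21, 1.24, 1.01 and 1.16 on depression-susceptible arrays, 0.99, 0.96, 0.95 and 0.96 on anxiety-susceptible arrays, 1.12, 1.08, 1.16 and 1.12 on insusceptible arrays, and 1.54, 1.59, 1.57 and 1.60 on control arrays. Anxiety-susceptible arrays were lowest, and every stressed array lay below every control array. Aif1 fell by 0.61 in anxiety-susceptible (SE 0.10, limma adjusted p = 0.0289) and by 0.45 in insusceptible hippocampus (SE 0.10, limma adjusted p = 0.0472). The depression-susceptible difference of -0.42 (SE 0.09, limma adjusted p = 0.0662) missed the threshold; with slide as a block among the 4 depression-susceptible and control samples it passed (limma adjusted p = 0.0242). Under quantile normalization the differences were -0.34 in depression-susceptible hippocampus, -0.45 in anxiety-susceptible and -0.28 in insusceptible hippocampus, and none passed (limma adjusted p = 0.117, 0.0572 and 0.149). Both Aif1 calls ended without any 1 of the depression-susceptible or control samples (limma adjusted p = 0.0664 to 0.139).

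Trem2 encodes a lipid receptor that signals through the adaptor Tyrobp and is needed for the damage-associated state of microglia. Its level lay between 0.85 and 1.02 on depression-susceptible, 0.79 and 0.86 on anxiety-susceptible, 0.74 and 0.80 on insusceptible and 0.87 and 1.14 on control arrays. Its differences from control were -0.03, -0.12 and -0.19 in depression-susceptible, anxiety-susceptible and insusceptible hippocampus (SE 0.08, 0.10 and 0.10, limma adjusted p = 0.834, 0.385 and 0.212). The highest anxiety-susceptible array and the lowest control array met at 0.86 and 0.87, and the insusceptible arrays lay below both. Tyrobp, looked up after its values were seen, differed by -0.24, -0.33 and -0.25 and did not pass either (limma adjusted p = 0.308, 0.186 and 0.277).

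C1qa and C1qb encode chains of C1q, the molecule that starts the classical complement pathway and that microglia make in brain. C1qa lay at 2.12, 2.16, 2.39 and 2.53 on depression-susceptible arrays, 1.98, 2.06, 2.06 and 2.05 on anxiety-susceptible arrays, 2.19, 2.16, 2.25 and 2.23 on insusceptible arrays, and 2.58, 2.63, 2.35 and 2.37 on control arrays. Arrays of slide 1 were higher than those of slide 2 in both groups, and within each slide the depression-susceptible arrays lay below the control arrays, with differences of -0.14 on slide 1 and -0.22 on slide 2. C1qa differed by -0.18, -0.45 and -0.28 in depression-susceptible, anxiety-susceptible and insusceptible hippocampus (SE 0.16, 0.19 and 0.19, limma adjusted p = 0.504, 0.159 and 0.327). C1qb did not pass either, with differences of -0.07, -0.07 and 0.05 (SE 0.08, 0.10 and 0.10, limma adjusted p = 0.604, 0.603 and 0.705). Its arrays stood between 1.57 and 1.77 throughout.

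Cd68 encodes a glycoprotein of lysosomes that is abundant in phagocytes. Its level was -1.05, -0.69, -1.16 and -1.04 on depression-susceptible arrays, -1.44, -1.55, -1.54 and -1.79 on anxiety-susceptible arrays, -1.31, -1.40, -1.43 and -1.25 on insusceptible arrays, and -1.14, -1.32, -1.49 and -1.59 on control arrays. Cd68 was the only 1 of the 9 whose depression-susceptible mean lay above control by more than its SE, at 0.40 (SE 0.16, 95% interval -0.03 to 0.84, limma adjusted p = 0.193). With the 16 arrays taken as separate samples this difference passed (limma adjusted p = 0.00784). It was 0.13 on slide 1 and 0.67 on slide 2, and the groups' arrays overlapped. In anxiety-susceptible and insusceptible hippocampus it was -0.19 and 0.04 (SE 0.19 each, limma adjusted p = 0.475 and 0.893).

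**Figure D2:**
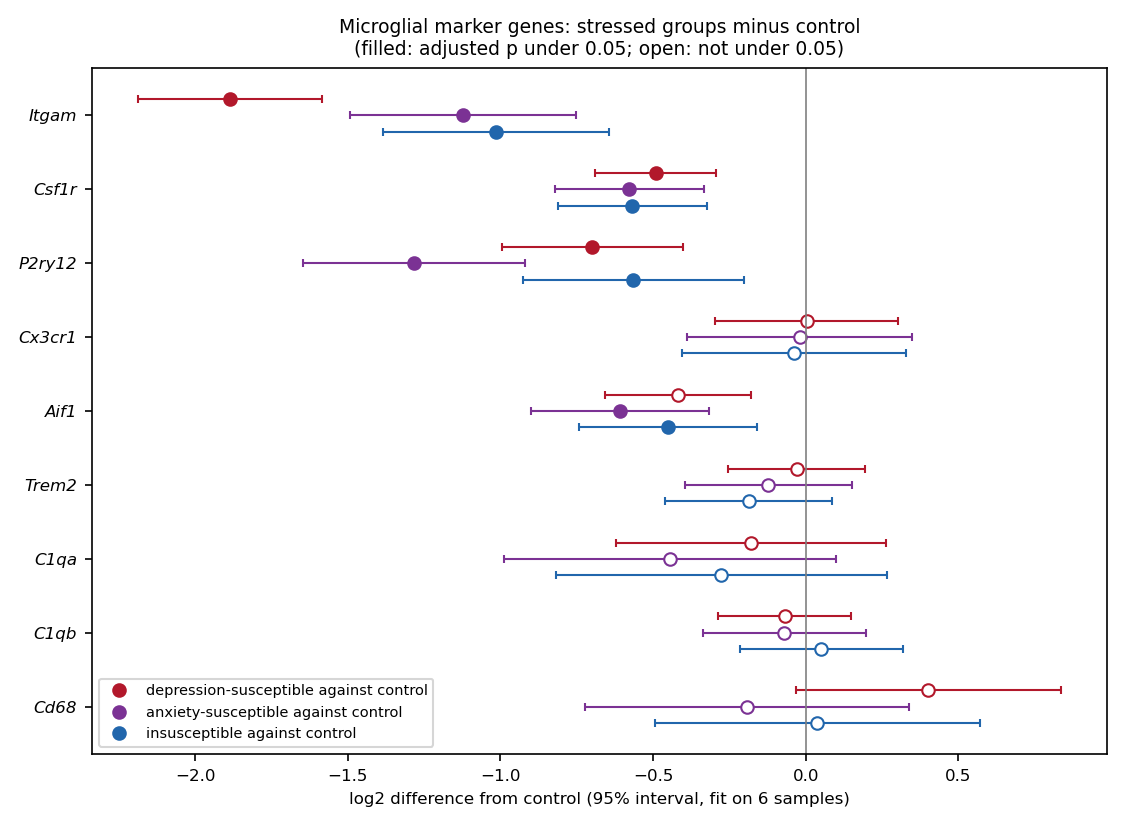
Log2 difference of each stressed group from control for the 9 microglial marker genes, with 95% intervals from the fit on 6 samples. Filled points passed the adjusted threshold and open points did not; Itgam, Csf1r and P2ry12 are filled in all 3 comparisons, Aif1 in 2, and the other 5 genes in none.

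The stressed groups were compared with each other to ask whether the markers follow the behavioural outcome. None of the 9 passed in these comparisons with limma on 6 samples, where few probes did: 0.0672% between depression-susceptible and insusceptible, 0.0895% between anxiety-susceptible and insusceptible, and 0.291% between depression-susceptible and anxiety-susceptible. At an unadjusted p under 0.05 it would be 1, 1 and 3 of the 9, and 5430, 1993 and 5523 of all probes. Itgam differed by -0.87 between depression-susceptible and insusceptible (SE 0.13, 95% interval -1.24 to -0.50, limma adjusted p = 0.0785) and by -0.76 between depression-susceptible and anxiety-susceptible hippocampus (SE 0.13, limma adjusted p = 0.0671). P2ry12 differed by 0.58 between depression-susceptible and anxiety-susceptible (SE 0.13, limma adjusted p = 0.0847) and by -0.72 between anxiety-susceptible and insusceptible hippocampus (SE 0.15, limma adjusted p = 0.251). With the 16 arrays taken as separate samples 4, 3 and 5 of the 9 passed, beside 61.7%, 36% and 61.8% of all probes.

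Ordered by group mean, Itgam was lowest in depression-susceptible (-4.95), then anxiety-susceptible (-4.19), insusceptible (-4.08) and control hippocampus (-3.07), and the anxiety-susceptible and insusceptible arrays overlapped. For P2ry12 the order was anxiety-susceptible (-1.64), depression-susceptible (-1.06), insusceptible (-0.92) and control (-0.36), with overlap between depression-susceptible and insusceptible. Csf1r stood at 3.08 in anxiety-susceptible, 3.09 in insusceptible, 3.17 in depression-susceptible and 3.66 in control hippocampus, and only the control arrays were apart from the rest. For Aif1 the means were 0.97 in anxiety-susceptible, 1.12 in insusceptible, 1.16 in depression-susceptible and 1.57 in control hippocampus, and the insusceptible and depression-susceptible arrays overlapped. In Cd68 depression-susceptible arrays were highest (-0.98), then insusceptible (-1.35), control (-1.39) and anxiety-susceptible (-1.58), and control arrays overlapped all 3 other groups.

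The 9 genes did not share 1 pattern over the 6 samples. After each gene was centred on its mean, the closest pair was Aif1 and Csf1r, with a root mean square difference of 0.065 in log2, and the farthest was Itgam and Cd68, at 0.95. Of 11213 other symbols, the 3 nearest to Itgam by the same measure were Dazl (0.18), Fmod (0.19) and Serpina6 (0.23), and the 3 nearest to the median of the other 8 genes were Hsd17b7 (0.035), Smim3 (0.037) and Ptp4a1 (0.038). Nearness here describes 6 samples that share slides and scan days.

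**Figure D3:**
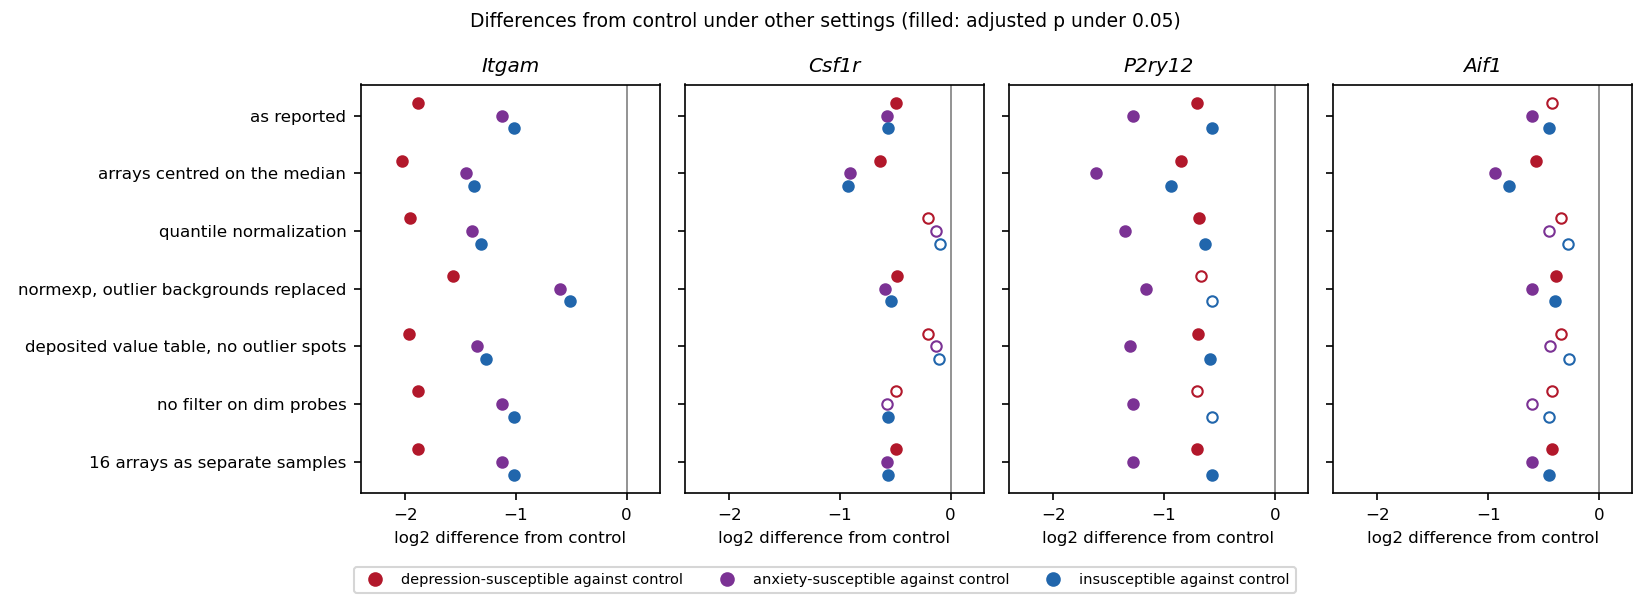
Log2 difference from control of Itgam, Csf1r, P2ry12 and Aif1 in each stressed group under 7 settings, from the reported one at the top to the 16 arrays as separate samples at the bottom. Filled points passed the adjusted threshold; Itgam is filled throughout, while Csf1r and Aif1 are open under quantile normalization.

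For all gene lists below, 9.89%, 28% and 28.9% of all probes passed against control in depression-susceptible, anxiety-susceptible and insusceptible hippocampus. A list whose share of calls is near these is not set apart from other probes. Other genes of microglia were read from a wider list of 29 homeostatic markers, of which 22 were tested. None passed in depression-susceptible hippocampus with limma on 6 samples (5 at an unadjusted p under 0.05, and 15 with 16 arrays as separate samples), 4 fell and 1 rose in anxiety-susceptible, and 2 fell and 1 rose in insusceptible hippocampus, with medians of -0.18, -0.01 and -0.02. Tmem119, a membrane protein used to tell microglia from other macrophages, differed by -0.30, 0.03 and -0.09 in depression-susceptible, anxiety-susceptible and insusceptible hippocampus (limma adjusted p = 0.0862, 0.839 and 0.476). The purinergic receptors P2ry13 (0.05, -0.18 and 0.28) and P2ry6 (0.19, 0.10 and 0.84) and the lysophospholipid receptor Gpr34 (-0.18, -0.21 and -0.22) did not pass in any of the 3. Rgs10, a regulator of G protein signalling, fell by 0.98 in anxiety-susceptible and 0.78 in insusceptible hippocampus (SE 0.16 each) and stood at -0.70 in depression-susceptible hippocampus (SE 0.13, limma adjusted p = 0.0572); under quantile normalization none of these passed. Tgfbr2, a TGF-beta receptor subunit, fell by 0.75 and 0.79 in the same groups (SE 0.16 each), but under normexp with outlier backgrounds replaced it was higher there, by 0.74 in each. In that setting the median difference over all probes was also raised, to 0.19 in anxiety-susceptible and 0.22 in insusceptible hippocampus, and was -0.04 in depression-susceptible hippocampus. Part of each turn above control under it, here and in the lists below, is therefore shared by probes in general. Il21r, the IL-21 receptor, rose by 0.86 in anxiety-susceptible and 1.05 in insusceptible hippocampus (SE 0.20 each), and neither rise passed under quantile normalization.

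Of 14 ligands and partners of the microglial receptors, all tested, 1 rose in depression-susceptible, 1 rose and 2 fell in anxiety-susceptible, and 1 rose and 3 fell in insusceptible hippocampus. The ligands of the Csf1r receptor did not pass in any comparison: Csf1 differed by 0.06, 0.35 and 0.40 and Il34 by 0.06, -0.30 and -0.07 in depression-susceptible, anxiety-susceptible and insusceptible hippocampus. Cx3cl1, the fractalkine gene, differed by -0.43, -0.58 and -0.81 (limma adjusted p = 0.189, 0.104 and 0.0539). Cd200, by which neurons restrain microglia, differed by -0.10, -0.28 and -0.32. Cxcl10, an interferon-induced chemokine, rose by 0.92 in depression-susceptible (SE 0.09, limma adjusted p = 0.0139) and fell by 0.98 in insusceptible hippocampus (SE 0.11, limma adjusted p = 0.0145). Entpd1, the ectonucleotidase CD39 that breaks down the nucleotides sensed by microglia, fell by 0.66 in anxiety-susceptible and 0.58 in insusceptible hippocampus (SE 0.13 each), but turned to 0.46 and 0.52 under normexp with outlier backgrounds replaced. Ccl2, a monocyte chemokine, rose by 0.47 in anxiety-susceptible hippocampus (SE 0.09, and 0.07 under quantile normalization). In insusceptible hippocampus Ccl2 fell by 0.47 (SE 0.09), but turned to 0.52, above control, under normexp with outlier backgrounds replaced. Apoe, a lipid carrier and Trem2 ligand, fell by 0.48 in anxiety-susceptible hippocampus (SE 0.11; -0.08 under quantile normalization), and Tgfb1 rose by 0.68 in insusceptible hippocampus (SE 0.09; 0.33 and not past the threshold under quantile normalization).

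Myeloid transcription factors and signalling genes numbered 29 tested of 30 listed: 1 rose in depression-susceptible, 1 rose and 4 fell in anxiety-susceptible, and 3 rose and 3 fell in insusceptible hippocampus. Spi1, which encodes PU.1, differed by 0.35, 0.24 and 0.15 (SE 0.14, 0.18 and 0.18), and Irf8 by 0.50, 0.29 and 0.34, above control in each group and past the threshold in none. Irf5 (-0.26, -0.19 and -0.23) and Runx1 (0.39, 0.21 and 0.01) did not pass. Tal1, a haematopoietic factor, rose by 0.45, 0.66 and 0.68 in depression-susceptible, anxiety-susceptible and insusceptible hippocampus (SE 0.08, 0.09 and 0.09; the first did not pass under quantile normalization). Coro1a, an actin regulator of leukocytes, fell by 1.0 in anxiety-susceptible and fell by 1.18 in insusceptible hippocampus (SE 0.15 each) and stood at -0.57 in depression-susceptible hippocampus (limma adjusted p = 0.0741). Ikzf1, a lymphoid and myeloid factor, fell by 1.20 and 0.82 in anxiety-susceptible and insusceptible hippocampus (SE 0.15 each), and Fyb1, an adaptor of leukocytes, fell by 1.64 in anxiety-susceptible hippocampus (SE 0.37). Under normexp with outlier backgrounds replaced these turned to 0.81 and 0.84 for Ikzf1 and 0.71 for Fyb1.

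Complement genes other than C1qa and C1qb numbered 15 tested of 20 listed: 2 rose in depression-susceptible, 1 rose and 3 fell in anxiety-susceptible, and 4 rose and 1 fell in insusceptible hippocampus. C1qc, which encodes the remaining chain of C1q, differed by -0.06, -0.28 and -0.14 (limma adjusted p = 0.593, 0.0816 and 0.272). The protease gene C1r fell by 0.67 in anxiety-susceptible and 0.77 in insusceptible hippocampus (SE 0.10 each), at 0.03 in depression-susceptible hippocampus. C1s differed by 0.13, 0.09 and 0.06 and C2 by 0.03, -0.33 and -0.22, none past the threshold. Cd46, a membrane regulator of complement, rose by 0.77, 0.83 and 0.69 in depression-susceptible, anxiety-susceptible and insusceptible hippocampus (SE 0.07, 0.09 and 0.09), and the last did not pass under quantile normalization. C4a rose by 0.47 in depression-susceptible and 0.77 in insusceptible hippocampus (SE 0.07 and 0.09); C4 genes are close copies, so which copy the probe measured is uncertain. Cfd, the alternative pathway protease adipsin, rose by 0.73 in insusceptible hippocampus (SE 0.15, and 0.37 under quantile normalization). Cfi, which cleaves C3b and C4b, fell by 0.85 in anxiety-susceptible hippocampus (SE 0.14). Under normexp with outlier backgrounds replaced the Cfi difference turned to 0.74, above control.

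Lysosome and phagocytosis genes, the group to which Cd68 belongs by function, numbered 23 tested of 30 listed: 2 fell in depression-susceptible, 5 fell in anxiety-susceptible, and 4 fell and 2 rose in insusceptible hippocampus, with medians of -0.20, -0.29 and -0.29. Ctsc, the protease cathepsin C, fell by 0.87, 1.06 and 1.22 in depression-susceptible, anxiety-susceptible and insusceptible hippocampus (SE 0.10, 0.12 and 0.12, limma adjusted p = 0.0205, 0.0158 and 0.0129). Ctsd, the protease cathepsin D, fell by 0.58, 0.68 and 0.85 (SE 0.07, 0.09 and 0.09), and under quantile normalization none of these 3 falls passed (-0.31, -0.25 and -0.39). Ctsa (-0.23, -0.35 and -0.46) and Ctsb (-0.33, 0.17 and 0.12) did not pass. Npc2, a lysosomal cholesterol carrier, fell by 1.09 in anxiety-susceptible and 1.15 in insusceptible hippocampus (SE 0.13 each), at -0.44 in depression-susceptible hippocampus (limma adjusted p = 0.092). Gas6, a bridge between dying cells and phagocyte receptors, fell by 1.03 in insusceptible hippocampus (SE 0.22).

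Genes of activated microglia, 20 tested of 28 listed, split: 1 rose and 1 fell in depression-susceptible, 1 rose and 3 fell in anxiety-susceptible, and 2 rose and 4 fell in insusceptible hippocampus. Lpl, lipoprotein lipase, fell by 0.94 in anxiety-susceptible and 0.85 in insusceptible hippocampus (SE 0.09 each), at -0.40 in depression-susceptible hippocampus (limma adjusted p = 0.0556). Spp1, osteopontin, rose by 1.24 and 1.16 in anxiety-susceptible and insusceptible hippocampus (SE 0.25 each), and neither rise passed under quantile normalization (0.83 and 0.68). Tspo, the mitochondrial protein imaged as a marker of glial activation, fell by 0.66 in depression-susceptible hippocampus (SE 0.08, limma adjusted p = 0.0233), and Timp2, an inhibitor of matrix proteases, rose by 0.71 (SE 0.10, limma adjusted p = 0.0309). Cd86, a costimulatory molecule, fell by 1.06 in anxiety-susceptible hippocampus (SE 0.17), but turned to 0.75, above control, under normexp with outlier backgrounds replaced. Ccl6, a chemokine, rose by 0.79 in insusceptible hippocampus (SE 0.14, and 0.26 under quantile normalization).

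Inflammatory mediators, 19 tested of 26 listed, also split: 4 rose and 2 fell in depression-susceptible, 4 rose and 2 fell in anxiety-susceptible, and 4 rose and 3 fell in insusceptible hippocampus. Il1b, the cytokine interleukin-1 beta, rose by 1.19 in depression-susceptible hippocampus (SE 0.10, limma adjusted p = 0.0108) and differed by 0.31 and 0.36 in anxiety-susceptible and insusceptible hippocampus (limma adjusted p = 0.133 and 0.101). Il6 fell by 1.58, 2.18 and 1.14 in depression-susceptible, anxiety-susceptible and insusceptible hippocampus (SE 0.11, 0.14 and 0.14), but the anxiety-susceptible and insusceptible differences turned to 0.03 and 0.25 under normexp with outlier backgrounds replaced. Tnf rose by 0.47 and 0.59 in depression-susceptible and anxiety-susceptible hippocampus (SE 0.07 and 0.09; 0.28 and 0.19 and not past the threshold under quantile normalization) and stood at -0.32 in insusceptible hippocampus. Il1a differed by 0.48, 0.53 and -0.36 and did not pass. Cxcl1, a neutrophil chemokine, rose by 1.0, 0.96 and 0.84 (SE 0.09, 0.11 and 0.11; the last did not pass under quantile normalization). Ptgs2, cyclooxygenase 2, fell by 1.08 and 0.73 in anxiety-susceptible and insusceptible hippocampus (SE 0.10 each). Ccl5, a T cell chemokine, fell by 1.67 in insusceptible hippocampus (SE 0.18), but turned to 0.18, above control, under normexp with outlier backgrounds replaced. Over the 7 lists from the homeostatic markers to the inflammatory mediators, 10 of 14 calls in depression-susceptible hippocampus, 23 of 32 in anxiety-susceptible and 19 of 37 in insusceptible hippocampus stood with the same sign under quantile normalization, 10, 25 and 22 with arrays centred on their median, and 9, 22 and 29 under normexp with outlier backgrounds replaced.

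**Figure D4:**
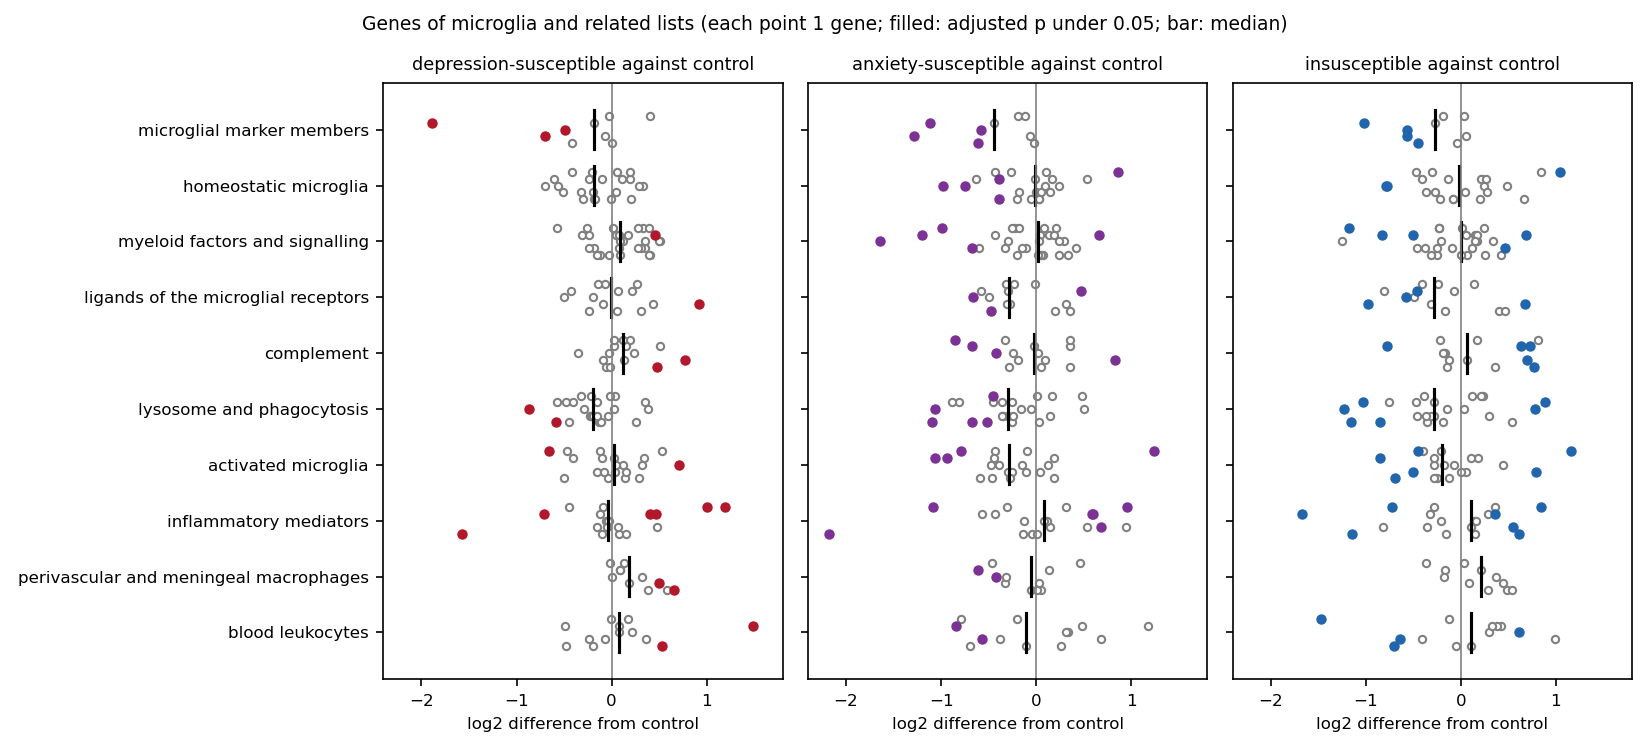
Log2 difference from control of each tested gene in 10 lists of microglia and related cells, one panel for each stressed group. Points are genes, filled where they passed the adjusted threshold, and bars are list medians; filled points of the activated microglia and inflammatory mediator lists lie on both sides of 0 in every panel.

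Markers of other cells that carry some of the 9 genes were read beside them. Of 11 tested markers of perivascular and meningeal macrophages, 2 rose in depression-susceptible hippocampus (Pf4 by 0.66, SE 0.10, and Folr2 by 0.50, SE 0.07) and 2 fell in anxiety-susceptible hippocampus (Clec10a by 0.62, SE 0.09, and Mrc1 by 0.42, SE 0.09), and none passed in insusceptible hippocampus with limma on 6 samples (5 at an unadjusted p under 0.05, and 8 with 16 arrays as separate samples). The summed linear level of the 11 was 1.42 to 1.54 on depression-susceptible, 1.09 to 1.12 on anxiety-susceptible, 1.33 to 1.36 on insusceptible and 1.31 to 1.32 on control arrays. None of the tested markers was at 0, Lyve1 differed by -0.02, 0.46 and 0.04, and Cd163 did not pass the filter on dim probes. Of 13 tested blood leukocyte markers, 2 rose in depression-susceptible (S100a8 by 1.49, SE 0.10, and Csf3r by 0.53, SE 0.08), 2 fell in anxiety-susceptible (S100a8 by 0.85, SE 0.13, and Lcn2 by 0.57, SE 0.10), and 1 rose and 3 fell in insusceptible hippocampus (Cd4 fell by 1.47, SE 0.23, Camp fell by 0.70, SE 0.11, and Cd3e fell by 0.64, SE 0.14, while Cd8a, named after its value was seen, rose by 0.61, SE 0.10). Under normexp with outlier backgrounds replaced S100a8 in anxiety-susceptible hippocampus turned to 0.47, and Cd4 and Camp in insusceptible hippocampus to 0.60 and 0.11. Ccr2, a monocyte marker, did not pass the filter. Their part in the microglial differences was not tested.

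Red blood cell and choroid plexus markers also differed between the groups. Red blood cell genes, mostly hemoglobins of close sequence, rose for 6 and fell for 1 of 9 in depression-susceptible, fell for 3 in anxiety-susceptible, and rose for 5 and fell for 1 in insusceptible hippocampus, with summed levels of 16.31 to 18.26, 0.693 to 0.726, 1.78 to 1.83 and, in control, 0.926 to 0.948. Choroid plexus genes fell for 17 of 18 in depression-susceptible hippocampus, 15 in anxiety-susceptible and 17 in insusceptible hippocampus, with 1 higher in each of the last 2 groups; their sums were 26.69 to 30.94, 92.15 to 105.6, 14.76 to 15.12 and, in control, 103.3 to 126.1. The summed level of the 9 microglial markers was 21.66 to 22.83 on depression-susceptible, 20.0 to 20.95 on anxiety-susceptible, 20.9 to 21.71 on insusceptible and 27.13 to 29.62 on control arrays. Bright probes weigh most in such a sum. Csf1r was the brightest of the 9 in every group (means 3.08 to 3.66), and Itgam the dimmest (-4.95 to -3.07). The sum therefore follows Csf1r more than Itgam, and the Csf1r falls did not pass under quantile normalization. The microglial and the choroid plexus sums were both highest on control arrays, and the choroid plexus sums of anxiety-susceptible and control arrays overlapped. That was not particular to these lists. Neuronal sums were 153.7 to 192.7 on control and 96.79 to 142.4 on stressed arrays, and oligodendrocyte sums 207.2 to 254.7 and 161.6 to 204.9. Astrocyte sums on control arrays, 215.8 to 279, overlapped those of every stressed group. Whether the amount of blood or of choroid plexus in the tissue bears on the microglial values was not tested.

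The main cell types of hippocampus showed few calls in depression-susceptible hippocampus. None of 11 astrocyte, 14 oligodendrocyte and 12 neuronal genes passed there with limma on 6 samples (3, 2 and 4 at an unadjusted p under 0.05, and 7, 9 and 6 with 16 arrays as separate samples), and 1 of 15 endothelial and pericyte genes rose (Kcnj8, by 0.51, SE 0.09). In anxiety-susceptible hippocampus 5 of 12 neuronal genes fell, among them Syt1 by 1.22 and Syp by 1.04 (SE 0.15 and 0.19), vesicle proteins of the synapse, and in insusceptible hippocampus 5 fell (Syt1 fell by 1.18 and Syp fell by 1.20) and 1 rose. The split of calls over all probes depends on the scaling. It was 1298 higher and 467 lower in depression-susceptible, 2646 and 2352 in anxiety-susceptible, and 3057 and 2100 in insusceptible hippocampus; with arrays centred on their median it was 850 and 768, 1387 and 6215, and 1467 and 6245, under normexp with outlier backgrounds replaced 1009 and 533, 6821 and 2618, and 7166 and 2489, and under quantile normalization 1170 and 639, 2257 and 3196, and 2316 and 2803. Median centring lowers all differences from control by about the same amount, with medians over all probes of -0.15, -0.33 and -0.32. Relative to these medians the differences under median centring were -1.88, -1.12 and -1.05 for Itgam. They equal those under the reported scaling by construction, since both scalings subtract a constant from each array. Under quantile normalization the differences relative to its medians were -1.94, -1.35 and -1.30 for Itgam, and -0.19, -0.079 and -0.084 for Csf1r.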

How the data were processed

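Deposited scanner values are spot intensity, background-subtracted per the file headers by Agilent Feature Extraction 11.0.1.1 under protocol GE1_1100_Jul11 (design 026403); they were not normalized between arrays. The value table that the authors deposited holds log2 values sharing their quantiles across arrays. It served only as an alternative, since its software could not be read from the sources used here. The headers name build rn4 and no annotation, so positions of probes are not given. Symbols came from matching each probe's RefSeq target to a name table of assembly GRCr8, which is also the build of the RefSeq promoters; Aif1 and P2ry12 were not matched to a promoter.

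Control spots and outlier-flagged spots were dropped, spots of a probe were averaged, and the array's 75th percentile over probes was subtracted from log2 processed signals. Probes well above background on at least 4 of 16 arrays were tested (17880 probes, 11344 symbols), and a symbol was represented by its brightest probe. Arrays of the same group and slide were averaged into 6 samples, after a check on 3846 probes with 3 spots each, none for messenger RNA; between slides 1 and 2 the same check gave ratios of 11.73 for control and 11 for depression-susceptible arrays. limma 3.58.1 in R 4.3.3 fitted 4 group means (2 residual degrees of freedom) with moderated two-sided tests and Benjamini-Hochberg adjustment over all probes. Arrays were read and plotted in Python 3.11.15 (matplotlib 3.10.9, numpy 2.4.6, pandas 2.3.3). The steps were tested on simulated data.

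Members, lists and settings were chosen with earlier results of these data known. Named are all 9 members, the first 4 entries of a list and up to 3 of its largest calls against control in each stressed group, and the 3 symbols nearest to Itgam and to the median of the others; Itgb2 and Tyrobp were added after their values were seen. A gene that this rule names is not reported here. Alternatives were quantile normalization, median centring, normexp (offset 50, on median spot signals, the mean not being among the columns), the value table, other filters on dim probes, 16 arrays as separate samples, a replicate block, and leaving out arrays or samples. Normexp with flagged backgrounds replaced by the array's median background and the value table without outlier spots were chosen after seeing the data.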

Additional observations from a re-analysis of the deposited data

Results flagged for a closer look

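Of 35 sets of 4 arrays tested (1 gene in 1 group), 4 held an array that stood apart from the other 3 by more than Dixon's 95% critical value, and chance alone would do so in about 1 of 20. The Itgam level on insusceptible replicate 2 was -4.19, with the nearest other array of the group at -4.05. The Cx3cr1 level on anxiety-susceptible replicate 2 was -1.72, with the nearest other at -2.01, and on control replicate 2 it was -2.08, with the nearest other at -1.88. The P2ry12 level on depression-susceptible replicate 1 was -0.80, with the nearest other at -1.13. Without that array the depression-susceptible P2ry12 difference from control was -0.78 (limma adjusted p = 0.0197).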

How the results depend on the processing

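Over the 33 alternatives, 1424 of 1641 differences of the 9 genes kept their direction and their side of the threshold, 78 lost a call, 46 gained one and 93 changed sign. Leaving out 1 anxiety-susceptible or insusceptible array could not change a comparison without its group, because each of these groups is 1 sample. Such settings are counted as kept in these totals and in the count for Itgam that follows, so both overstate stability. Itgam in depression-susceptible against control kept its call in 32 of 33 (-2.03 to -1.57), the exception being normexp as planned. That correction called no probe in any comparison with limma (509 to 994 at an unadjusted p under 0.05 against control) and 0, 0 and 0 of the 9 genes against control; the median signal of control replicate 3 was 2162.8 after correction, 155.5 before it and 195.9 with outlier backgrounds replaced. With outlier backgrounds replaced 3, 4 and 3 genes passed in depression-susceptible, anxiety-susceptible and insusceptible hippocampus against control, 1 in depression-susceptible against insusceptible and 1 in depression-susceptible against anxiety-susceptible; median centring gave 4, 6 and 5 against control. With 16 arrays as separate samples 5 genes passed in depression-susceptible against control, 4 in depression-susceptible against insusceptible, 3 in anxiety-susceptible against insusceptible and 5 in depression-susceptible against anxiety-susceptible. Deviations of same-numbered arrays of different groups correlated at -0.663 to 0.177 (24 pairs). Same-numbered control and depression-susceptible arrays always lay on different slides, so this check cannot tell whether the numbers pair those groups. Depression-susceptible and control arrays of the same slide correlated at 0.511 to 0.649 and those of different slides at -0.663 to -0.451. The replicate block on the 16 arrays gave the same 5, 4, 3 and 5, and 6 in anxiety-susceptible against control, where 5 passed without the block and Trem2 passed with it (limma adjusted p = 0.0384, without it 0.0603). With slide as a replicate block among the 4 depression-susceptible and control samples 4 genes passed, and Itgam differed by -1.89 (limma adjusted p = 0.00394). Over all probes, where 1765, 4998 and 5157 passed in depression-susceptible, anxiety-susceptible and insusceptible hippocampus against control, 16 separate arrays gave 8798, 12763 and 13001, median centring 1618, 7602 and 7712, normexp with outlier backgrounds replaced 1542, 9439 and 9655, and the slide block 6559 in the first comparison. Quantile normalization left 2, 2 and 2 against control in the same order, and 1 in depression-susceptible against anxiety-susceptible. The deposited value table gave 2, 2 and 1 against control and 1 in depression-susceptible against insusceptible, and without outlier spots 2, 2 and 2 against control. The call between these stressed groups was P2ry12 (-1.26, limma adjusted p = 0.0491), whose flagged insusceptible spot that table includes. Without outlier spots the P2ry12 difference was -0.11 (limma adjusted p = 0.59). With only probes well above background on all arrays 2, 3 and 3 passed, P2ry12 not being tested. No filter on dim probes gave 1, 2 and 2 against control and 1 in depression-susceptible against insusceptible, with more probes adjusted over. Leave-one-out and without single arrays, the counts ranged from 1 to 3 in depression-susceptible, 0 to 4 in anxiety-susceptible and 0 to 4 in insusceptible hippocampus against control, and were 0 to 0 between stressed groups; fits without a sample have 1 residual degree of freedom fewer. Other changes were not tested for a cause.

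Sign changes concerned genes that had not passed, apart from P2ry12 in insusceptible hippocampus, at 0.56 in the deposited value table, which includes the flagged spot. In depression-susceptible against control, Cx3cr1 turned to -0.039 under quantile normalization, -0.17 under planned normexp, -0.054 in both forms of the value table, -0.14 under median centring and -0.043 within slide 1. Trem2 turned to 0.0025 under quantile normalization, 0.039 under planned normexp, 0.0037 in the table and 0.044 within slide 2, and C1qb to 0.019, 0.036 and, in the table, 0.026. In anxiety-susceptible against control C1qb turned to 0.12 under quantile normalization and 0.13 in the table, Trem2 to 5e-04 in the table, and Cx3cr1 to 0.027 under normexp with outlier backgrounds replaced. In insusceptible against control C1qa turned to 0.085 under quantile normalization and 0.088 in the table, and Cd68 to -0.065, -0.023 and, under median centring, -0.32. C1qb turned there to -0.091 and -0.10 under the 2 forms of normexp and -0.31 under median centring, and Cx3cr1 to 0.047 and 0.045 under the 2 forms of normexp. For depression-susceptible against insusceptible, quantile normalization and the table gave -0.064 and -0.073 for Aif1, -0.11 and -0.10 for Csf1r, and -0.10 and -0.095 for C1qa; the 2 forms of normexp gave -0.22 and -0.040 for Cx3cr1 and 0.13 and 0.076 for C1qb, and median centring 0.093 for P2ry12 and 0.097 for C1qb. For depression-susceptible against anxiety-susceptible, quantile normalization and the table gave -0.074 and -0.068 for Csf1r and -0.10 and -0.11 for C1qb, and the 2 forms of normexp -0.026 and -0.022 for Cx3cr1. For anxiety-susceptible against insusceptible, Csf1r turned to 0.019 under planned normexp and 0.023 under median centring, and Cx3cr1 to -0.19 and -0.017 under the 2 forms of normexp.

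With single arrays or samples left out, Cx3cr1 ranged from -0.097 to 0.10 in depression-susceptible, -0.095 to 0.034 in anxiety-susceptible and -0.093 to 0.015 in insusceptible hippocampus against control. Between stressed groups it ranged from -0.058 to 0.14 for depression-susceptible against insusceptible, -0.056 to 0.047 for anxiety-susceptible against insusceptible and -0.076 to 0.12 for depression-susceptible against anxiety-susceptible. Trem2 ranged from -0.10 to 0.040 in depression-susceptible and Cd68 from -0.12 to 0.19 in insusceptible hippocampus against control. Aif1 ranged from -0.035 to 0.10 and C1qa from -0.061 to 0.25 for depression-susceptible against insusceptible, C1qb from -0.014 to 0.017 for depression-susceptible against anxiety-susceptible, and Csf1r from -0.046 to 0.0092 for anxiety-susceptible against insusceptible. With only probes well above background on all 16 arrays P2ry12 could not be tested, since its flagged spot has no value, and with 1 probe per gene the mean of all probes is the reported value. The number of arrays and samples, and signal over background for Itgam, limit what could be detected.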
